A study of Mus musculus with 6 samples.

Results

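Transcripts of 10 chemokine genes, Ccl2, Ccl5, Ccl7, Ccl9, Cxcl1, Cxcl5, Cxcl10, Cxcl12, Cxcl16 and Cx3cl1, were examined by symbol among the 23420 genes counted in RNA-seq libraries of mouse bone marrow-derived mesenchymal stromal cells (MSCs). The genes were listed as inflammatory, interferon-induced and homeostatic chemokines, and all 10 were found in the table. The cells came from the femurs of female C57BL/6 mice 6 to 8 weeks old. At passage 5 they received either the empty AP2 retroviral construct (3 libraries labelled Ctl MSC) or the same eGFP-marked construct coding for the thymoproteasome subunits β1i, β2i and β5t, genes Psmb9, Psmb10 and Psmb11 (3 libraries labelled MSC-TPr). The cells of both groups thus carried a retroviral vector and eGFP, and both were grown in AMEM with serum. The study asked whether MSCs with an altered proteasome could serve as an anti-cancer vaccine, and the comparison described here asks whether chemokine transcripts differ between the labels. The sources used here do not say whether the libraries came from separate cultures or animals, so the p-values measure the spread between libraries, which may be technical.

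Chemokines are small secreted proteins that guide leukocytes along concentration gradients through G protein-coupled receptors. They are classed by the spacing of their first conserved cysteines into CC, CXC and CX3C families, and by use into inflammatory members, induced through NF-κB or interferon signalling, and homeostatic members made without a stimulus. MSCs of the bone marrow are known for CXCL12, which retains haematopoietic stem cells in their niche, and for CCL2, which draws monocytes.

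The libraries held 16158756 to 22158887 reads on genes. The detection limit of 3 reads came to 0.135 to 0.186 CPM (read counts scaled to the library total), which covers counting error only. The transduced genes did not separate the labels. Psmb10 measured 27.8, 8.81 and 8.38 CPM across Ctl MSC 1 to 3, against 8.97, 17.3 and 15.2 CPM across MSC-TPr 1 to 3. Psmb9 overlapped in the same way, at 3.38, 0.801 and 0.827 CPM against 0.554, 1.24 and 1.21 CPM. Both were higher in Ctl MSC 1 and MSC-TPr 2 and 3 than in Ctl MSC 2 and 3 and MSC-TPr 1. Psmb11 had 1 to 6 reads per library, so each direction below is one between library labels. Libraries numbered 1 stood apart from their groups. On the first principal component, which held 58.5% of the variance, Ctl MSC 1 lay beside MSC-TPr 2 and 3, and MSC-TPr 1 beside Ctl MSC 2 and 3. The second component, with 28.3% of the variance, separated the labels. Ctl MSC libraries lay at -48.9 to -19.6 on it and MSC-TPr libraries at 15.6 to 49.1. The cell division level, the average log2 CPM over 20 proliferation genes, grouped the libraries as the first component did. It was 6.45 in Ctl MSC 1 and 6.32 and 6.42 in MSC-TPr 2 and 3, against 3.10 and 3.09 in Ctl MSC 2 and 3 and 3.19 in MSC-TPr 1. Results are therefore given over all 6 libraries, without both libraries numbered 1, and with the cell division level as a covariate. Without both libraries numbered 1, every Ctl MSC library left is of low level and every MSC-TPr library left of high level. Label and cell division level cannot be told apart in that fit. Its 2 Ctl MSC libraries were also very alike. The chi-square per gene between 2 libraries was 4.76 for Ctl MSC 2 and 3, far below every other pair. It was 172 and 161 for Ctl MSC 1 against Ctl MSC 2 and 3. The common dispersion was 0.0168 in that fit, against 0.124 over 6 libraries. The SE and p-values of that fit rest on this small spread. Psmb10 was called higher in it (log2 fold change 0.92, edgeR adjusted p = 0.0055), as were 20.6% of all genes, and Psmb9 was not called (0.59, 0.164). Of 9 MSC markers, 8 passed the filter on low counts, while Thy1 (CD90) reached a single read in all. None was called over 6 libraries. Nt5e (CD73) alone separated the labels, at 11.4 to 20.2 CPM among the controls and 2.66 to 5.24 CPM among the MSC-TPr libraries. With the covariate 3 of the 8 were called lower and 0 higher, where 7.33% and 4.76% of all genes were. Without both libraries numbered 1, 1 was called higher and 1 lower (20.6% and 19.4% of all genes). The haematopoietic markers summed to 11.2 to 14.5 CPM among the controls and 13.0 to 17.6 CPM among the MSC-TPr libraries, mostly from Cd14 and Cd68, whereas the defining markers Ptprc (CD45) and Itgam (CD11b) had at most 0.0928 CPM, Adgre1 (F4/80) and Cd3e had no read, and the endothelial markers Pecam1, Cdh5 and Emcn had at most 0.221 CPM. The 6 endothelial markers summed to 1.27 to 6.20 CPM among the controls and 2.41 to 24.7 CPM among the MSC-TPr libraries, the highest sum being that of MSC-TPr 1, where Vwf had 21.4 CPM. With the covariate 1 of the 2 endothelial markers tested was called higher, where 4.76% of all genes were, and none lower. None of the 3 haematopoietic markers tested was called with it, and no marker of either list over 6 libraries. Without both libraries numbered 1, Cd14 and Csf1r were called higher and Cd68 and Vwf lower (20.6% and 19.4% of all genes). Csf1r reached at most 0.835 CPM, and Kdr, the other endothelial marker tested, 2.99 CPM. The part of such cells in the chemokine values was not tested.

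Per length of exon, Ccl7, Cxcl12 and Ccl2 were the most abundant of these transcripts. The length was the union of all annotated exons of a gene, which can exceed the length of any single transcript. Ccl7, which encodes a monocyte attractant of the CC family, ranked first in 5 of the 6 libraries, with 13.3 to 184 CPM per kb, and Cxcl12 ranked second in the same 5 and first in Ctl MSC 2, with 8.30 to 172 CPM per kb. Their ranges overlapped almost entirely. The exon union was 8176 bases for Cxcl12 and 801 bases for Ccl7, so the order of these genes depends on it. Before this scaling Cxcl12 had the higher CPM in every library. Ccl2 followed with 2.58 to 136 CPM per kb. Ccl5 had rank 3 in Ctl MSC 2 and 3, at 25.9 and 27.1 CPM per kb, but rank 5 or 6 in every MSC-TPr library, at 1.44 to 3.82 CPM per kb. Ccl9, Cx3cl1, Cxcl10 and Cxcl1 formed the next tier, with means over the 6 libraries of 5.24, 4.30, 3.20 and 1.90 CPM per kb and overlapping ranges. Within a library Cx3cl1 was above Cxcl1 in all 6. Cxcl5 and Cxcl16 were lowest, at 0 to 1.33 and 0.020 to 0.300 CPM per kb.

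**Figure D1:**
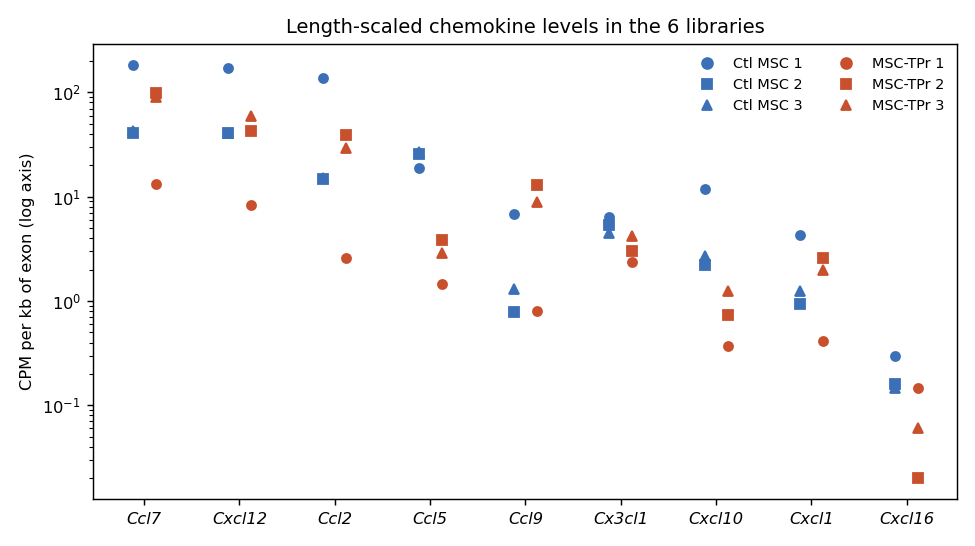
CPM per kb of exon (log axis) of 9 chemokine genes in the 3 Ctl MSC (blue) and 3 MSC-TPr (red) libraries, ordered by their mean; Cxcl5 is left out because MSC-TPr 1 had no read of it. Ccl7 and Cxcl12 reach 184 and 172 CPM per kb in Ctl MSC 1, and Cxcl16 stays at or under 0.300.

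Over all 6 libraries, 1 chemokine, Ccl5, differed between the labels and was lower in MSC-TPr. Of the 10 genes, 8 passed the filter on low counts (all but Cxcl5 and Cxcl16), and 1 of these 8 was called, meaning an edgeR quasi-likelihood adjusted p below 0.05 and at least 0.5 log2 units between the labels. Among the 11974 genes tested 0.426% were called, 0.401% lower and 0.0251% higher. At an unadjusted p below 0.05, 3 of the 8 were lower (Ccl5, Cxcl10 and Cx3cl1), against 8.23% of genes. The median log2 fold change of the 8 was -0.97, against 0.01 over all genes tested. A negative value was found in 7 of the 8, against 5850 of the 11974 genes tested. In 3 of the 8, Ccl5, Cxcl10 and Cx3cl1, every MSC-TPr library lay below every Ctl MSC library, which held for 12.1% of all genes tested, and no member lay above without overlap. Fewer expressing cells and less RNA per cell cannot be told apart in these bulk samples.

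**Figure D2:**
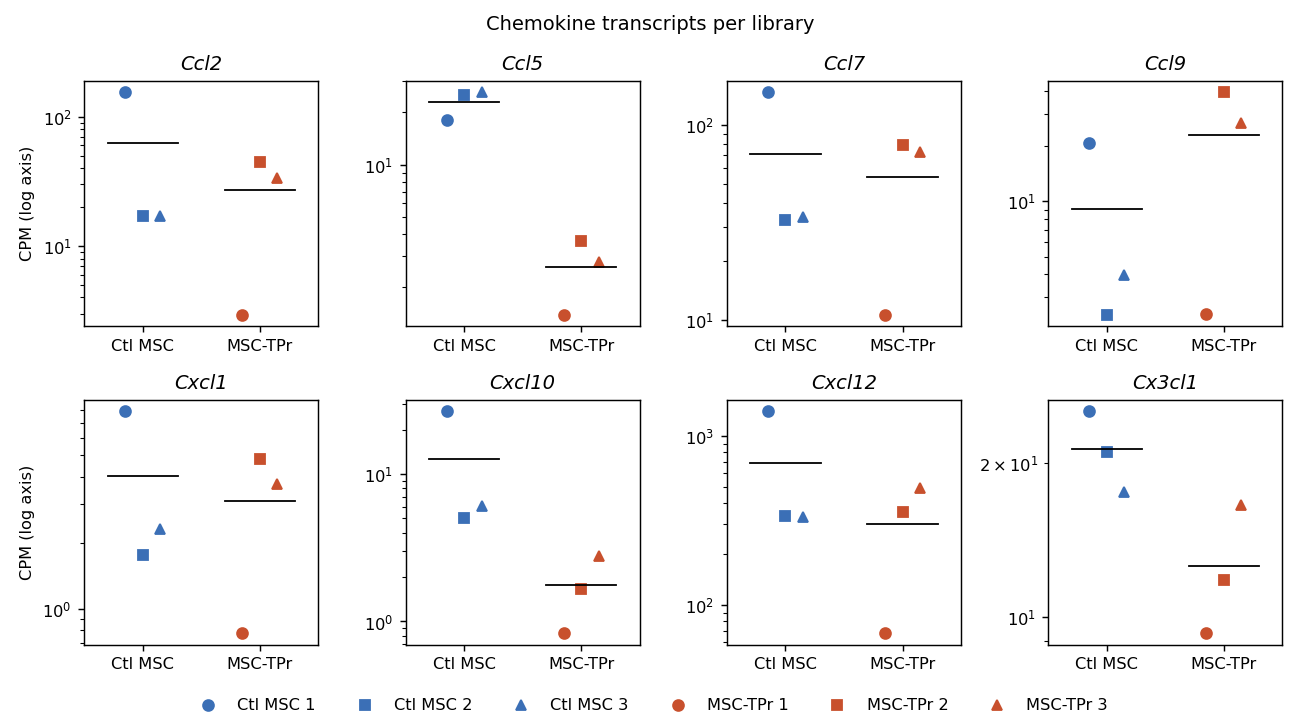
CPM (log axis, range set per panel) of the 8 chemokines that passed the filter, by label, with a point for each library (circle 1, square 2, triangle 3) and a bar at the mean of the 3. The groups of Ccl5, Cxcl10 and Cx3cl1 do not overlap, and the circles of Ctl MSC 1 and MSC-TPr 1 mark the highest or lowest point of most panels.

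The libraries numbered 1 held the extremes. Ctl MSC 1 was the highest library for 8 of the 10 genes, compared with 21.6% of all genes tested, and MSC-TPr 1 the lowest for 8, compared with 22.4%. The 10 include Cxcl5 and Cxcl16, which are not among the genes tested. They were ranked on CPM, and the genes tested on log2 CPM with a prior count. All 10 were higher in Ctl MSC 1 than in MSC-TPr 1, as were 50.1% of all genes tested. For 7 of the 8 that passed the filter this difference exceeded 5-fold, which was true of 5.92% of genes, and for all 8 it exceeded 2-fold, true of 16.7%. The highest library exceeded the lowest by over 5-fold for the same 7, against 12% of genes. Each of these libraries stands alone, so their difference has no replicate check.

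Ccl5 (RANTES, a CC chemokine that attracts T cells and monocytes and is induced by NF-κB and interferon) showed the clearest difference. Its position is chromosome 11, 83525778 to 83530518 (mm10), and it measured 17.9, 24.9 and 26.0 CPM across Ctl MSC 1 to 3, against 1.38, 3.67 and 2.78 CPM across MSC-TPr 1 to 3. Its lowest Ctl MSC value was several times its highest MSC-TPr value, and libraries numbered 1 did not swap places. Ccl5 fell from 22.9 ± 4.36 to 2.61 ± 1.15 CPM (SD, n = 3 each), 8.77-fold (-3.13 on the log2 scale, SE 0.397, edgeR adjusted p = 0.0391). Without both libraries numbered 1 the log2 fold change was -2.99 (edgeR adjusted p = 0.00022). Dropping any single library left it between -3.45 and -2.83. The call was lost without Ctl MSC 2 (edgeR adjusted p = 0.152), Ctl MSC 3 (0.152), MSC-TPr 2 (0.176) or MSC-TPr 3 (0.220).

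Cxcl10 (IP-10, a ligand of CXCR3 on activated T cells and a classical interferon-induced gene) was also lower in every MSC-TPr library. Its position is chromosome 5, 92346638 to 92348889, where exons of Art3 on the opposite strand overlap it, although Art3 had at most 1 read in any library. The values were 26.9, 5.02 and 6.07 CPM across Ctl MSC 1 to 3, against 0.830, 1.66 and 2.78 CPM across MSC-TPr 1 to 3. Ctl MSC 1 stood well above the other controls, and the spread within the label was as large as its mean (12.7 ± 12.3 CPM, SD, n = 3, against 1.76 ± 0.980 CPM in MSC-TPr). The log2 fold change was -2.84 (95% interval -4.76 to -0.91) and did not pass the adjustment with edgeR (adjusted p = 0.199), while DESeq2 called it (log2 fold change -2.83, adjusted p = 0.0056). DESeq2 called 2 of the 10 genes, Ccl5 and Cxcl10, both lower, beside 5.28% of all genes and 3.39% called lower. Without both libraries numbered 1 the log2 fold change of Cxcl10 was -1.29 (edgeR adjusted p = 0.0151). The range over the fits that left out 1 library was -3.33 to -1.64, the last without Ctl MSC 1.

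The promoter of Cxcl10 is shown because it alone held matches to both motifs searched. Promoters were available for Ccl9, Cx3cl1, Cxcl1, Cxcl10 and Cxcl12 (5 of the 10 genes, RefSeq, GRCm38.p6), and the 250 bases before the start were searched on both strands, overlapping matches included, for the NF-κB consensus of 10 bases and for the core of the interferon-stimulated response element, ISRE (GAAA, any 2 bases, GAAA). Capitals mark matches, and each sequence reads 5′ to 3′ on the strand of the gene, which is minus for Cxcl10 (chr5:92348890-92349139).
Cxcl10 promoter: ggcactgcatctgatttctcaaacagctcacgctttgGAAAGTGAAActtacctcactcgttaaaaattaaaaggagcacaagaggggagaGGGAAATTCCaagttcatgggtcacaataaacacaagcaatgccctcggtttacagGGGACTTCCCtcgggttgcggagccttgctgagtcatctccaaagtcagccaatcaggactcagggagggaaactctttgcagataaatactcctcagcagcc
Cxcl10 held 1 ISRE match starting 213 bases before the start and 2 NF-κB matches at 159 and 103 bases. An ISRE match occurred in 2.98% and an NF-κB match in 3.90% of the 32851 promoter windows searched. Matches describe letters and not binding.

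Cxcl9, another interferon-induced CXCR3 ligand and the only one of the other chemokine ligands with an unadjusted p under 0.05, resembled Cxcl10 in direction. It measured 1.33, 0.801 and 1.27 CPM across Ctl MSC 1 to 3, against 0.055, 0.118 and 0.046 CPM, or 1 to 2 reads, across MSC-TPr 1 to 3 (log2 fold change -3.86, which rests on these few reads, edgeR adjusted p = 0.0567). Cxcl11, the remaining CXCR3 ligand, reached at most 0.0534 CPM. Of 28 other chemokine ligands, 27 were in the table and 3 passed the filter, with none called over 6 libraries. With the covariate 1 of the 3 was called lower and none higher, where 7.33% and 4.76% of all genes were. Without both libraries numbered 1, Cxcl9 alone was called, lower (log2 fold change -3.61, edgeR adjusted p = 0.0058), as were 19.4% of all genes. The others of these 3, Ccl25 and Ccl27a, had log2 fold changes of 0.14 and -0.22 and overlapping groups.

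Interferon signalling genes gave a similar direction for the most part. Of 16 genes, all 16 passed the filter, and 14 had a negative log2 fold change, against 5850 of the 11974 genes tested. The median was -0.42 against 0.01 over all genes. One of them, Usp18, a feedback inhibitor of the type I interferon receptor, was called lower, with 46.3, 22.8 and 25.6 CPM across Ctl MSC 1 to 3, against 4.37, 2.37 and 1.72 CPM across MSC-TPr 1 to 3 (log2 fold change -3.49, edgeR adjusted p = 0.0485). In 7 of the 16 every MSC-TPr library lay below every Ctl MSC library, against 12.1% of all genes, and in 1, Irf3, every one lay above (10.6% of all genes). Without both libraries numbered 1, 7 of the 16 were called lower and none higher, where 19.4% of the 12122 genes tested were called lower. With the covariate the counts were also 7 and 0, where 7.33% of all genes were called lower and 4.76% higher.

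Ccl2, Ccl7 and Ccl9 attract monocytes and macrophages, the first 2 through CCR2 and Ccl9 through CCR1. Ccl2 and Ccl7 lie 8258 bases apart on chromosome 11 of mm10, Ccl2 at 82035571 to 82037453 and Ccl7 at 82045712 to 82047525. Ccl2 measured 155, 17.0 and 17.2 CPM across Ctl MSC 1 to 3, against 2.93, 44.7 and 33.6 CPM across MSC-TPr 1 to 3. Ctl MSC 1 was thus 52.7-fold above MSC-TPr 1, while Ctl MSC 2 and 3 were below MSC-TPr 2 and 3. Over 6 libraries Ccl2 had a log2 fold change of -1.22 (95% interval -4.04 to 1.61, edgeR adjusted p = 0.678), from 63.0 ± 79.5 to 27.1 ± 21.6 CPM (SD, n = 3 each). Leaving out both libraries numbered 1, it rose 2.29-fold (log2 fold change 1.20, SE 0.169, edgeR adjusted p = 0.0030).

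Ccl7 showed the same order of libraries. It measured 148, 32.6 and 33.9 CPM across Ctl MSC 1 to 3, against 10.6, 79.1 and 72.6 CPM across MSC-TPr 1 to 3. The 6 libraries gave -0.40 on the log2 scale (95% interval -2.48 to 1.68, edgeR adjusted p = 0.864), and the 4 libraries numbered 2 and 3 gave a rise of 1.19 (SE 0.117, edgeR adjusted p = 0.00092). The ratio of Ccl2 to Ccl7 CPM was 1.05 in Ctl MSC 1 and 0.276 in MSC-TPr 1, and 0.463 to 0.565 in the other 4 libraries, so Ccl2 varied more between the libraries numbered 1 than its neighbour did.

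Ccl9 (MIP-1γ), on chromosome 11 from 83572919 to 83578636, was the only member with a positive log2 fold change over 6 libraries. It measured 20.8, 2.40 and 3.97 CPM across Ctl MSC 1 to 3, against 2.44, 39.3 and 26.9 CPM across MSC-TPr 1 to 3. The label means were 9.05 ± 10.2 and 22.9 ± 18.8 CPM (SD, n = 3 each), and the log2 fold change of 1.34 had a 95% interval of -1.34 to 4.02 (edgeR adjusted p = 0.622). In the 4 libraries numbered 2 and 3 Ccl9 rose 10.4-fold (log2 fold change 3.38, SE 0.301, edgeR adjusted p = 0.00066). Ccl5 lies 42400 bases from Ccl9 and differed in the opposite direction in these 4 libraries. The Ccl9 promoter is shown beside that of Cxcl1 because both had an NF-κB match and higher values in the libraries of high cell division (chr11:83578637-83578886, minus strand, and chr5:90890995-90891244, plus strand).
Ccl9 promoter: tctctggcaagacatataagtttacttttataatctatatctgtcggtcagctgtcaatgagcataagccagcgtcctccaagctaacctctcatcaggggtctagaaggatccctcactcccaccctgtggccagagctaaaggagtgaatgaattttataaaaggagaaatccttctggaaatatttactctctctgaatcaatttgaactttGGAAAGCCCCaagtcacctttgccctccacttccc
Cxcl1 promoter: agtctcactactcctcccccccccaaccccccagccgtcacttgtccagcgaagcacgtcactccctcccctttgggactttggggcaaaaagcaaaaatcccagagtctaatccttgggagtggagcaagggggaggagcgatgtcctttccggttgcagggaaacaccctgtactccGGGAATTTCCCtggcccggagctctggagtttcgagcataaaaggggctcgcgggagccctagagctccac
Ccl9 held 1 NF-κB match at 35 bases before the start, and Cxcl1 held 2 that overlap, at 71 and 70 bases. Neither held an ISRE match, and Cx3cl1 and Cxcl12 held no match to either motif. In all, 3 of the 5 promoters had an NF-κB match.

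Cxcl1 and Cxcl5 draw neutrophils through CXCR2. Cxcl1 (KC), on chromosome 5 from 90891241 to 90893115, measured 7.98, 1.76 and 2.32 CPM across Ctl MSC 1 to 3, against 0.775, 4.79 and 3.71 CPM across MSC-TPr 1 to 3. The groups overlapped, with a log2 fold change of -0.37 over 6 libraries (95% interval -2.30 to 1.55, edgeR adjusted p = 0.863). In the libraries numbered 2 and 3 Cxcl1 rose 2.08-fold (log2 fold change 1.05, SE 0.265, edgeR adjusted p = 0.0214). Cxcl5 (LIX), also on chromosome 5 from 90759360 to 90761624, had 41 reads in Ctl MSC 1 and 4 and 2 in Ctl MSC 2 and 3, and 0, 2 and 4 reads in MSC-TPr 1, 2 and 3. Ctl MSC 1 alone, at 2.48 CPM, was well above the level of 3 reads, and no fold was computed.

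Cxcl12 (SDF-1), the homeostatic ligand of CXCR4, contributed most of the reads, 53326 of those on the 10 genes in all, and made up 65.5% to 77.7% of their summed CPM in each library. Its position is chromosome 6, 117168535 to 117181367, and it measured 1408.5, 336 and 331 CPM across Ctl MSC 1 to 3, against 67.9, 352 and 488 CPM across MSC-TPr 1 to 3. Ctl MSC 1 exceeded MSC-TPr 1 by 20.8-fold, whereas MSC-TPr 2 lay close to Ctl MSC 2 and 3 and MSC-TPr 3 above them. The log2 fold change was -1.19 over 6 libraries (95% interval -3.22 to 0.84, edgeR adjusted p = 0.554). It was 0.34 without both libraries numbered 1 (95% interval -0.09 to 0.76, edgeR adjusted p = 0.163), so the direction turned and neither fit called it.

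Cx3cl1 (fractalkine) and Cxcl16 are made as membrane-anchored proteins that metalloproteases shed. Cx3cl1, the ligand of CX3CR1 on monocytes, lies on chromosome 8 from 94772009 to 94782427 and varied least, with 25.3, 21.0 and 17.5 CPM across Ctl MSC 1 to 3, against 9.30, 11.8 and 16.6 CPM across MSC-TPr 1 to 3. The groups did not overlap, but the gap between Ctl MSC 3 and MSC-TPr 3 was narrow. The means were 21.3 ± 3.86 and 12.6 ± 3.68 CPM (SD, n = 3 each), with a log2 fold change of -0.76 (95% interval -1.42 to -0.10, edgeR adjusted p = 0.277). In the libraries numbered 2 and 3 it was -0.43 (edgeR adjusted p = 0.128). Cxcl16, the ligand of CXCR6, on chromosome 11 from 70453983 to 70459984, had 15, 9 and 8 reads across Ctl MSC 1 to 3, against 8, 1 and 4 across MSC-TPr 1 to 3, and was not tested. Exons of Zmynd15, with at most 3 reads in any library, overlap it on the opposite strand.

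Without both libraries numbered 1, 6 of the 8 chemokines were called, 4 higher (Ccl2, Ccl7, Ccl9 and Cxcl1) and 2 lower (Ccl5 and Cxcl10). In this fit 40% of the 12122 genes tested were called, 20.6% higher and 19.4% lower. All 20 cell division genes were called higher in it too, so label and cell division level cannot be told apart here. The calls also rest on the small spread between Ctl MSC 2 and 3 given above. All 8 had groups without overlap in these 4 libraries, as did 77.5% of the genes tested. In Ccl2, Ccl7, Ccl9, Cxcl1 and Cxcl12, MSC-TPr 2 and 3 lay above Ctl MSC 2 and 3 while MSC-TPr 1 lay below Ctl MSC 1, although Cxcl12 was not called.

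The level of the chemokines was then set beside the cell division level of each library. Among the libraries of high level, Ctl MSC 1 was above MSC-TPr 2 and 3 for 7 of the 8 chemokines, all but Ccl9. Among those of low level, Ctl MSC 2 and 3 were above MSC-TPr 1 for the same 7. This pattern held for 25.6% of all genes tested. The opposite one held for no chemokine and 25.1% of genes. Within a label, the values were higher at the high level for 7 of the 8, all but Ccl5 (32% of all genes), and for Ccl5 only the MSC-TPr libraries followed this order.

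**Figure D3:**
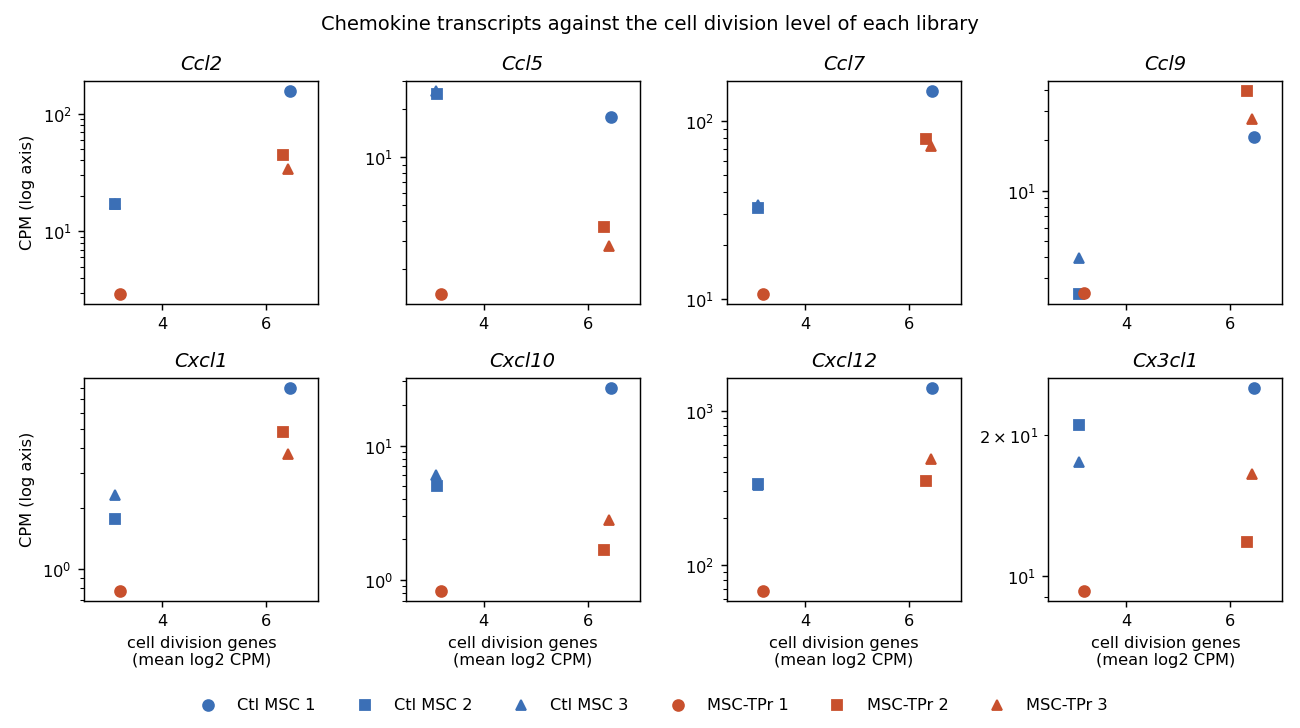
CPM (log axis, range set per panel) of the 8 chemokines against the cell division level of each library (average log2 CPM of 20 genes), Ctl MSC in blue and MSC-TPr in red. Near 3.1 and near 6.4 on the horizontal axis the red points lie below the blue ones for all genes but Ccl9.

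With the cell division level as a covariate in the fit of all 6 libraries, 7 of the 8 chemokines were called lower in MSC-TPr and none higher, where 7.33% of the 11974 genes tested were called lower and 4.76% higher. Cxcl10 had the largest log2 fold change, -3.28 (95% interval -3.93 to -2.64, edgeR adjusted p = 0.00058). Ccl5 followed with -3.18 (-4.01 to -2.35, edgeR adjusted p = 0.0020). For Ccl2 and Cxcl12 the values were -2.18 (-2.67 to -1.68) and -2.02 (-2.48 to -1.56), both with an edgeR adjusted p of 0.0011. Ccl7, Cxcl1 and Cx3cl1 changed less, by -1.27, -1.06 and -0.94 log2 units (edgeR adjusted p = 0.0077, 0.0458 and 0.0202). Ccl9 was not called (0.29, 95% interval -0.52 to 1.10, edgeR adjusted p = 0.616). Ccl2, Ccl7 and Cxcl1 thus had opposite directions in this fit and in the fit without both libraries numbered 1, and each fit called them. The covariate fit leaves 3 residual degrees of freedom and rests on a single Ctl MSC library at the high level and a single MSC-TPr library at the low level, and what sets these libraries apart was not tested.

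**Figure D4:**
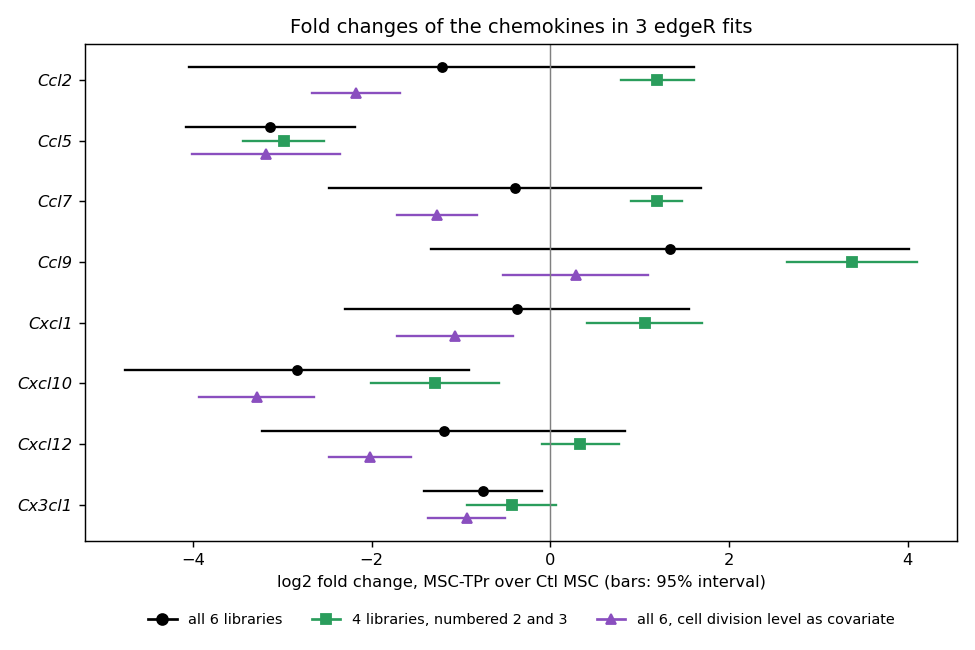
Log2 fold change of MSC-TPr over Ctl MSC for the 8 chemokines, with 95% intervals, in the edgeR fits of all 6 libraries (black circles), of the 4 libraries numbered 2 and 3 (green squares) and of all 6 with the cell division level as covariate (purple triangles). Ccl5 and Cxcl10 are below 0 in each fit, and Ccl2, Ccl7, Cxcl1 and Cxcl12 lie on opposite sides of 0 in the green and purple fits.

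Receptors of these ligands were scarce in the MSC libraries. Of 23 chemokine receptors, including the atypical receptors, 3 passed the filter, and none was called over 6 libraries or with the covariate. Without both libraries numbered 1, 3 of 4 tested were called higher, where 20.6% of all genes were. These were Cxcr2 (log2 fold change 1.80, edgeR adjusted p = 0.0339), Cxcr6 (3.63, 0.0131) and Xcr1 (2.08, 0.0234), all from few reads. Over all libraries Cxcr6, the receptor of CXCL16, ranged from 0 to 2.48 CPM with overlapping groups. Cxcr2 ranged from 0.694 to 3.61 CPM with overlapping groups, and Ccr10 from 0.748 to 0.993 CPM. Cxcr4, through which CXCL12 signals, reached at most 0.121 CPM. Ackr3, which scavenges CXCL12, had 6.28 CPM in Ctl MSC 1 and at most 0.267 CPM elsewhere.

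Among 6 sheddases and proteases that act on chemokines, 4 passed the filter and none was called over 6 libraries. Adam10, the main constitutive sheddase of CX3CL1 and CXCL16, ranged from 168 to 171 CPM among the controls and from 132 to 161 CPM among the MSC-TPr libraries (log2 fold change -0.23, edgeR adjusted p = 0.483). Adam17, the inducible sheddase, had overlapping groups and a log2 fold change of 0.07. Mmp2, a gelatinase that cleaves CCL7 and CXCL12, measured 139, 114 and 120 CPM across Ctl MSC 1 to 3, against 36.2, 60.2 and 84.7 CPM across MSC-TPr 1 to 3 (log2 fold change -1.04, edgeR adjusted p = 0.213). Its groups did not overlap, and it was called lower without both libraries numbered 1 (log2 fold change -0.68, edgeR adjusted p = 0.0237), as were 19.4% of all genes. With the covariate 1 of the 4 was called lower, where 7.33% of all genes were.

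Of 24 genes of the NF-κB pathway, 23 passed the filter and 1, Birc3, was called lower, with a median log2 fold change of -0.08. Without both libraries numbered 1, 3 were called higher and 3 lower, where 20.6% and 19.4% of all genes were. With the covariate 0 were called higher and 4 lower, where 4.76% and 7.33% of all genes were. Birc3, a ubiquitin ligase of TNF receptor complexes and itself an NF-κB target, ranged from 54.4 to 78.4 CPM among the controls and from 2.44 to 3.85 CPM among the MSC-TPr libraries (log2 fold change -4.31, edgeR adjusted p = 0.0081). Transcripts of the NF-κB subunits were not called over 6 libraries, with log2 fold changes of -0.16 for Nfkb1, 0.09 for Nfkb2, 0.26 for Rela, -0.16 for Relb and 0.40 for Rel and overlapping groups, although Rel was called higher without both libraries numbered 1 (0.75, edgeR adjusted p = 0.0227). Nfkbia, the inhibitor that NF-κB induces, was highest in Ctl MSC 1 (16.6 CPM) and lowest in MSC-TPr 1 (6.15 CPM), and lay at 7.21 to 11.7 CPM elsewhere.

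The gene most like each chemokine over the 6 libraries was found as that with the smallest root mean square difference in centred log2 CPM among 10815 genes with a mean log2 CPM of at least 1. For Cxcl10 it was Ifit1, an interferon-induced gene, with a difference of 0.15 log2 units and 186, 40.3 and 43.7 CPM across Ctl MSC 1 to 3, against 7.81, 14.8 and 18.6 CPM across MSC-TPr 1 to 3. For Ccl5 it was Pgr (0.33), with 89.3, 201 and 191 CPM against 8.91, 17.3 and 23.5 CPM in the same order of libraries. Ccl2 was nearest to Ckb (0.27), Ccl7 to F13a1 (0.16), Ccl9 to Fam132b (0.26), Cxcl1 to Gadd45g (0.18), Cxcl12 to Ddit4l (0.21) and Cx3cl1 to Sept5 (0.08). Among the chemokines themselves, Ccl7 and Cxcl1 were most alike (0.23) and Ccl5 and Ccl9 least (2.59). These are descriptions over 6 libraries that share the cell division pattern given above.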

How the data were processed

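Libraries of polyadenylated RNA were made by the authors with a stranded kit and aligned to mm10. The deposited values are raw counts per gene from Htseq-count, not normalized. Per the submitters' processing notes, Trimmomatic 0.35 and TopHat2 2.1.0 were used, and the strand setting of the counting is not given in the sources used here. The counter's 5 summary rows, 13.8% to 20.8% of reads, were left out. The authors' own comparison used DESeq2.

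The main test was edgeR 4.0.16 (R 4.3.3; filterByExpr, TMM scaling, quasi-likelihood F test on group alone, Benjamini-Hochberg adjustment over all genes), and a call needed an adjusted p below 0.05 and a change of 0.5 log2 units or more. CPM use TMM-scaled library sizes, log2 CPM a prior count of 2, and the SE is the log2 fold change divided by the square root of F. DESeq2 1.42.0 was an alternative, beside those given in the closing section. On simulated counts of 16807 genes with 200 changed 4-fold between 3 and 3 libraries, edgeR recovered 200 and 192 at dispersions of 0.01 and 0.1. It made 12 and 7 false calls. The changed genes were drawn from those of higher counts, and no cell division pattern was simulated. For these reasons the recovery does not carry over to the chemokines. The common dispersion of the data was 0.124, slightly above the higher setting. Positions and exon lengths come from GENCODE M21 (mm10). Genes named are the 10 chemokines, the transduced genes, genes of the lists that were called, or the up to 3 of smallest p where none was, and the nearest gene of each chemokine. Art3, Zmynd15 and other list genes were named after their values were seen. Members and lists were chosen with earlier results of these data known. The study's protein measurements were not analysed here.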

Additional observations from a re-analysis of the deposited data

How the results depend on the processing

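Over all genes, 51 were called with edgeR, and RLE or upper quartile scaling and no filter on low counts moved this by less than 1.5 times. A minimum of 10 counts in every library gave 31, DESeq2 683, the cell division covariate 1448, the fit without both libraries numbered 1 4854, and the replicate number as a block 0 (edgeR, with 776 at an unadjusted p under 0.05). Leaving out 1 library gave 0 to 108, with 0 without Ctl MSC 2, Ctl MSC 3 or MSC-TPr 3, 1 without MSC-TPr 2 and 108 without Ctl MSC 1. Of the chemokines, 1 was called, against 2 with DESeq2, 7 with the covariate, 6 without both libraries numbered 1, 0 with the block (1 at an unadjusted p under 0.05) and 0 to 1 with 1 library left out. The count without overlap was 3, against 8 without both libraries numbered 1 (where 77.5% of all genes lay apart, against 22.6%) and 3 to 4 with 1 library left out. The count over all genes moved too. Without Ctl MSC 1, 2802 of 12184 genes lay above and 2986 below. Without Ctl MSC 2 the counts were 1440 and 1623 of 12148. The 4 chemokines were found without MSC-TPr 1, where 2483 of 12260 genes lay above and 2615 below.

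Direction turned without both libraries numbered 1 for Ccl2 (1.20), Ccl7 (1.19), Cxcl1 (1.05) and Cxcl12 (0.34). With 1 library left out, the log2 fold changes ran from -1.77 to 0.67 for Ccl2, -0.77 to 0.70 for Ccl7 and -0.82 to 0.60 for Cxcl1. They turned without Ctl MSC 1, and for Ccl7 (0.09) and Cxcl1 (0.09) also without MSC-TPr 1. Ccl5, Cxcl10 and Cx3cl1 stayed below 0 in all 14 alternatives and Ccl9 above 0. Ccl5 had adjusted p from 4.5e-12 (DESeq2) to 0.297 (edgeR, replicate block, log2 fold change -3.22). Same-numbered libraries had correlations of -0.76, -0.59 and -0.60 between their deviations from the group means. Libraries numbered 1 lay apart from their groups in opposite directions, which by itself makes these correlations negative. They cannot show whether same-numbered libraries shared a culture or a batch. The cause of the shifts in log2 fold change between fits was not tested.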
